A study of Homo sapiens with 4 samples.

Results

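The long arm of chromosome 19 was described through its SMC1-bound chromatin loops in A673 cells, a line from Ewing sarcoma. Members were the rows of the authors' table of high-confidence loops whose first anchor lies on chromosome 19 at or beyond 27.5 Mb (hg19 positions throughout, unless another build is named). The rule took 258 of the 22680 loops in that table. Within the arm, the stretch from 52 to 59 Mb, called the zinc-finger stretch here, held 16 loops, and the rest of the arm held 242. The rule used position alone, not counts, widths or genotype ratios, but it was set with earlier results of these data known.

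The study compared 2 STAG2-null with 2 wild-type libraries of A673 by HiChIP, in which nearby DNA ends are ligated in fixed nuclei and those bound by a chosen protein, here SMC1, are pulled down. Per the labels' treatment protocol, the null libraries came from clones grown out of single cells after Cas9 editing; it does not say whether they are of the same clone. No other treatment is named. The wild-type libraries are titled A673 WT, and the authors' count columns for wild type carry the tag NT. The labels do not say that the libraries of a group were separate cultures, so p-values cover only how far these libraries spread, and that spread may be technical. Contacts precipitated through SMC1 give no level of STAG2, so the genotype could not be checked from them.

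Cohesin is a ring-shaped complex that holds SMC1, SMC3, RAD21 and a STAG subunit, STAG1 or STAG2, and that extrudes DNA into loops, often until it meets CTCF bound at both ends. A HiChIP loop is a pair of anchors, the regions bound by SMC1, joined by more paired-end tags (PETs, ligation products counted once per read pair) than their distance would give. Chromosome 19 carries tandem clusters of KRAB zinc-finger genes, whose proteins bind DNA and recruit the co-repressor TRIM28, and the clusters themselves are known to be coated with the repressive mark H3K9me3 in many cell types.

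No deposited file places genes along the arm, so the name of the stretch was checked against gene order alone. In the RefSeq list of assembly GRCh38.p14, 270 of the 1451 protein-coding genes of chromosome 19 (18.6%) had a zinc-finger symbol. HRC is named by the authors at a loop whose first anchor starts at 49644953, proximal to the stretch, and beyond HRC 116 of 331 genes (35.0%) were zinc-finger genes. The same interval held 37 leukocyte receptor genes and 9 NLRP genes, which encode innate immune sensors, so it is not made of zinc-finger genes alone. Of the last 30 genes of the chromosome, 21 (70.0%) were zinc-finger genes, and TRIM28 was another of the 30. Zinc-finger genes also lay outside the stretch: 21 of the 70 genes from CEACAM6 to ZNF112 were of this kind, including all 12 just before ZNF112, against 1 of 62 from RTN2 to SELENOW.

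Promoter sequence was available for genes that the authors' deposited differential table places at a promoter anchor of a loop on the arm, and 4 are shown: RTN2, SELENOW and CEACAM6 because their loops had the lowest p-values among these, and ZNF112 because it is the zinc-finger gene among them. They are the 250 bases before the start of each gene in RefSeq, in assembly GRCh38.p14, a different build from that of the loops: RTN2 at chr19:45497048-45497297 on the minus strand, ZNF112 at chr19:44356705-44356954 on the minus strand, SELENOW at chr19:47778453-47778702 on the plus strand and CEACAM6 at chr19:41755280-41755529 on the plus strand. Capitals mark the GC box GGGCGG on either strand, or, in ZNF112, ACTACA read on the other strand.
RTN2: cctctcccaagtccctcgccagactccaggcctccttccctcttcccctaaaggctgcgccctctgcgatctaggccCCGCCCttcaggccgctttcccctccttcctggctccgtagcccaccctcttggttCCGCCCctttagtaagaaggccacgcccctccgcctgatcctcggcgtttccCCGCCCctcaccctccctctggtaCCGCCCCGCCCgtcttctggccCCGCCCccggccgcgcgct
SELENOW: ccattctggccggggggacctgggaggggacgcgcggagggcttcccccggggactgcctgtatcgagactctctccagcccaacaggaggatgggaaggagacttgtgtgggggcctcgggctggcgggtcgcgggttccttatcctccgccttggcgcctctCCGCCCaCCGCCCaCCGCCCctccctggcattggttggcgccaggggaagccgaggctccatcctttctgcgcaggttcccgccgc
CEACAM6: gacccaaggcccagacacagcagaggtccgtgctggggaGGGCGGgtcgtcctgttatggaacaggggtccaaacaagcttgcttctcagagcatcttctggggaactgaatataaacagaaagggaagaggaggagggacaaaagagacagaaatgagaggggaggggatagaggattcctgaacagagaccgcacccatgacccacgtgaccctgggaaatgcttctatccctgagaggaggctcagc
ZNF112: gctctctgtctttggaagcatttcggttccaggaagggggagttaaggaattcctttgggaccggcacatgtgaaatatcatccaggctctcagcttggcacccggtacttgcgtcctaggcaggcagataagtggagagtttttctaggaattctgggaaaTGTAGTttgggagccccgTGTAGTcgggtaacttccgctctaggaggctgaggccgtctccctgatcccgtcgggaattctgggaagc
The RTN2 window held 6 GC boxes, the SELENOW window 3 and the CEACAM6 window 1, and the ZNF112 window held none. GGGCGG was present in 42.6% of all 35116 promoter windows, so a match is common. ACTACA, chosen for searching on both strands after the ZNF112 sequence had been seen, occurred 2 times in that window and in none of the other 3. It was in 7.28% of all windows, in 24.9% of the 333 windows of zinc-finger genes on chromosome 19 and in 29.6% of the 125 such windows beyond HRC. CCGGAAG, the core bound by ETS factors, to which FLI1 belongs, was in 8.52% of all windows, in 32.0% of those 125 and in none of the 4 shown. Matches may share bases, as a pair of the 6 GC boxes of RTN2 does. A match is a description of letters in a window, not of binding.

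The zinc-finger stretch held few loops for its SMC1 anchors. It carried 259 anchors over 7 Mb, or 37.0 per Mb, against 1073 anchors, or 45.0 per Mb, in the rest of the arm. Loops thinned out more than anchors did: 2.29 per Mb in the stretch and 10.1 per Mb in the rest, a ratio of 0.225, and 6.18 against 22.6 per 100 anchors, a ratio of 0.274. Over the genome as a whole, 28.4 loops were called per 100 anchors. The median over its 1 Mb windows with at least 20 anchors was lower, at 10.4. No test was made over loops, because loops of the same libraries are not replicates.

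**Figure D1:**
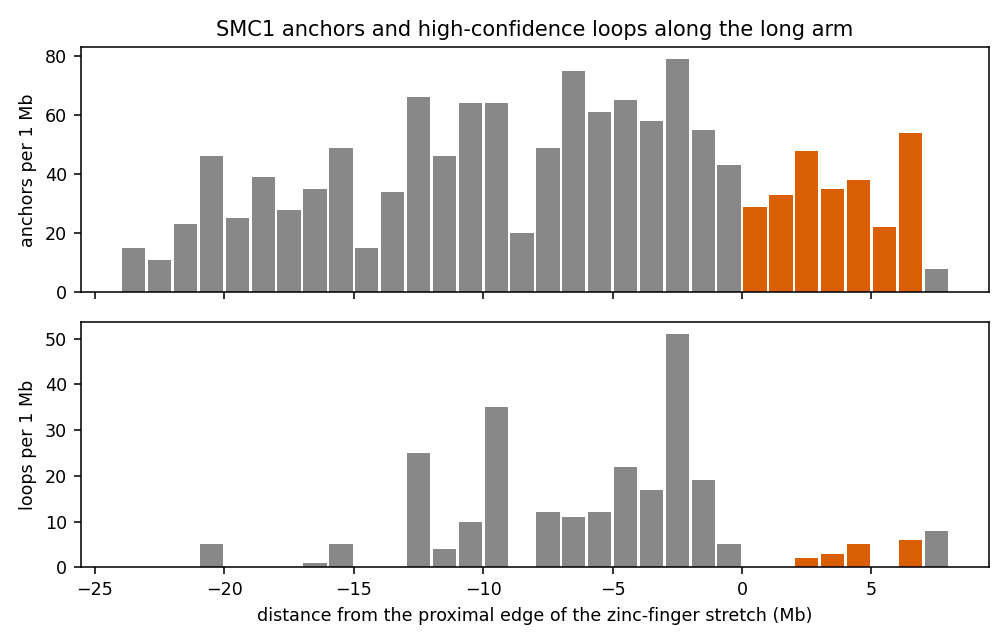
Number of SMC1 anchors (top) and of high-confidence loops (bottom) in each 1 Mb window of the long arm, against distance in Mb from the proximal edge of the zinc-finger stretch, with the 7 windows of the stretch in orange. Anchors continue through the stretch, whereas its loops number 16 in all and 3 of its 7 windows have none.

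The scarcity was not particular to the stretch. The rest of the arm was split after its values had been seen. Its 28 to 39 Mb segment had 320 anchors and 11 loops, 3.44 per 100 anchors, which was below the stretch. Zinc-finger genes of that segment were not counted separately, so it is not known to be a comparison free of them. The 39 to 52 Mb segment had 745 anchors and 223 loops, 29.9 per 100 anchors. That was close to the 28.4 of the genome as a whole and above the 10.4 of its median window. Windows of 1 Mb without a loop numbered 12 of 32 on the arm, whatever their number of anchors, and 8 of the 12 lay below 39 Mb. Over the genome, 351 of the 1687 windows with at least 20 anchors (20.8%) had none. The arm's count is not matched to that minimum: its window at 29 Mb, for example, had 11 anchors. The window from 49 to 50 Mb alone held 51 loops. Beyond 59 Mb, the last 8 anchors carried 8 loops, and 61.8% of the 361 PETs there fell in loops.

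Loops of the stretch were short. Their widths, midpoint to midpoint, had a lowest value of 5.65, a median of 12.8 and a highest of 43.7 kb, against 5.02, 16.9 and 363 kb in the rest of the arm. Over the whole genome the median was 24.5 kb. The 11 loops of the 28 to 39 Mb segment were as short, with a median of 12.6 kb, none of 50 kb or more, and 9 (81.8%) joining neighbouring anchors. No stretch loop reached 50 kb, and 50 of the 242 others (20.7%) did. Loops under 20 kb made up 13 of 16 in the stretch (81.3%) and 137 of 242 in the rest (56.6%). Neighbouring anchors, with no other anchor between them, were joined by 11 of the 16 stretch loops (68.8%) and by 113 of the 242 others (46.7%). Among loops with at least 20 PETs, 9 of 124 lay in the stretch. Their ratio of median widths was 0.932, against 0.757 over all loops, so the medians were closer among the better-covered loops. The upper ends were not: the widest of these in the stretch was 15.7 kb, and the rest held a loop of 146 kb with 20 PETs.

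The loops called in the stretch had counts within the range of those called elsewhere on the arm. Summed over the 4 libraries, its lowest, median and highest counts were 13, 21 and 42 PETs, against 10, 19 and 79 in the rest. In the order STAG2-null 1, STAG2-null 2, wild-type 1 and wild-type 2, the mean count per loop was 4.94, 6.81, 5.06 and 5.69 PETs in the stretch and 5.69, 6.59, 5.49 and 5.65 in the rest. The stretch and the rest differed by less than the libraries differed among themselves. What differed was the share of contacts that fell in loops: 6.26, 8.18, 6.77 and 6.80% of the PETs of the stretch, against 15.9, 16.9, 15.8 and 14.6% of those of the rest. All 4 libraries were lower in the stretch, with no overlap, but the authors called loops with these same counts. In the 28 to 39 Mb segment the share was lower still, at 3.82, 3.98, 3.98 and 2.85%, and its median anchor had 25 PETs.

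Weaker contact at matched distance was measured over all possible anchor pairs, not only those called as loops. At 5 to 20 kb the stretch had 533 PETs per 100 possible pairs and the rest 786, a ratio of 0.678. The ratio was 0.783 at 20 to 50 kb, 0.721 at 50 to 200 kb and 0.764 at 200 to 500 kb. It was 1.13 at 500 kb to 2 Mb, with 7.47 PETs per 100 possible pairs in the stretch and 6.62 in the rest. Loops were rarer than contacts in the shortest class: 7.03 per 100 possible pairs in the stretch and 14.1 in the rest. At 50 to 200 kb, 1657 possible pairs of the stretch held no loop, where 8661 in the rest held 46. The median anchor of the stretch had 28 PETs over the 4 libraries and that of the rest 48, while median anchor widths were 2.32 and 2.34 kb. Depth per anchor thus differed with position, and its part in the number of called loops was not tested.

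**Figure D2:**
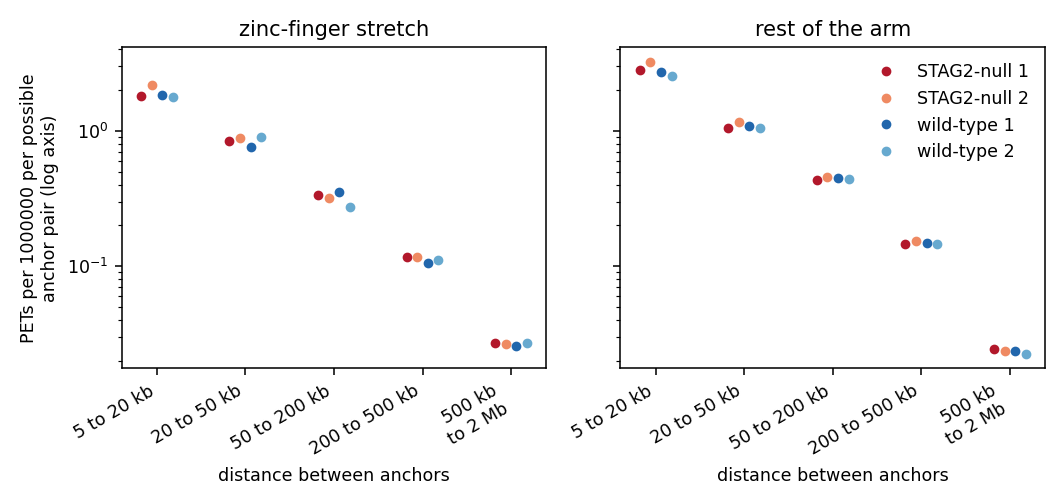
PETs per 1000000 per possible anchor pair (log axis) by distance between anchors, in the zinc-finger stretch and in the rest of the arm, with 1 point per library. Values fall with distance in both, and the libraries of the 2 genotypes lie close together within each class.

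By genotype, the shortest class of the rest of the arm had 2.81 and 3.21 PETs per 1000000 per possible pair in the null libraries and 2.69 and 2.52 in wild type, a log2 ratio of 0.21 with no overlap. In the stretch the same class had 1.80 and 2.19 against 1.85 and 1.77, a log2 ratio of 0.14 with overlapping libraries. The difference between these ratios was not tested. Of the other classes, 200 to 500 kb in the stretch alone did not overlap, at a log2 ratio of 0.10.

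The 16 stretch loops fell into 7 groups that shared anchors, none with more than 4 loops. The rest of the arm formed 53 groups, the largest with 32 loops on 25 anchors between 49943434 and 50434814. In the stretch, the group at chr19:56115293-56183757 held 4 loops with 23, 38, 27 and 19 PETs in the libraries, in the order above. The group at chr19:58896353-58922394 also held 4 loops, with 26, 27, 21 and 31 PETs. Neither group separated the genotypes. Others with overlapping libraries were at chr19:54692434-54713939 with 49 PETs over the 4 libraries, chr19:55713027-55772764 with 28 and chr19:55812279-55854198 with 13. Counts did not overlap at chr19:56088699-56099425, with 6 and 6 PETs in the null libraries and 3 and 4 in wild type. Nor did they at chr19:58948682-58982941, with 6 and 9 against 11 and 13. These groups held 19 and 39 PETs in all. No test was made on groups.

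**Figure D3:**
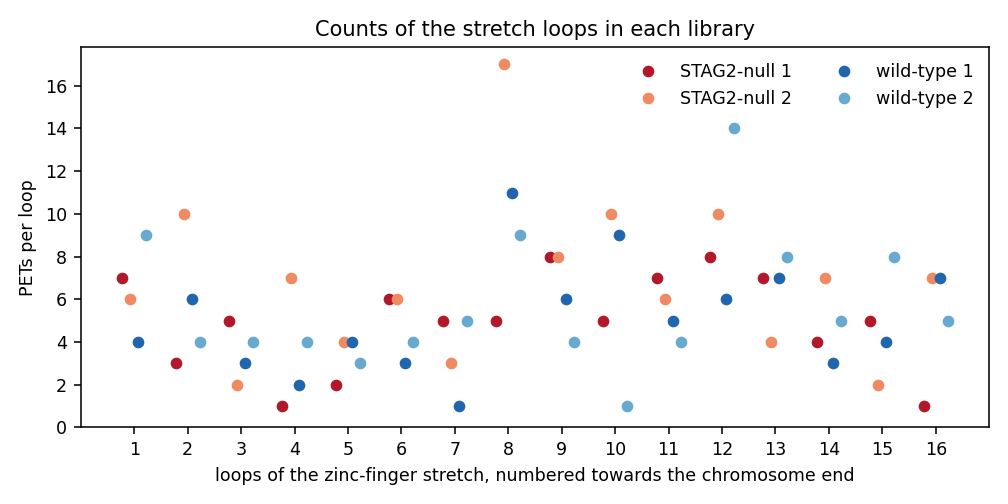
PETs in each of the 4 libraries (points) for the 16 loops of the zinc-finger stretch, numbered towards the chromosome end. Counts range from 1 to 17 per library, and in most loops the points of the genotypes overlap.

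Single loops of the stretch carried too few PETs to show a modest genotype difference. The strongest, between chr19:56142877-56148382 and chr19:56149824-56155676, had 5 and 17 PETs in the null libraries and 11 and 9 in wild type, so the null libraries lay on either side of wild type. The loop between chr19:56149824-56155676 and chr19:56163832-56169523 had 8 and 8 PETs against 6 and 4, a log2 ratio of null over wild type of 0.65 ± 0.59 (SE of the fit). The loop at chr19:56088699-56093474 had 6 and 6 against 3 and 4, a log2 ratio of 0.74 ± 0.69. In the other direction, the loop at chr19:58948682-58953762 had 5 and 2 against 4 and 8, a log2 ratio of -0.77 ± 0.69. Each of these ratios was close to its standard error. Normalised counts of the libraries did not overlap in 3 stretch loops that were higher and 1 that was lower in the null, where 20.1% and 18.6% of all 22598 loops tested did so. The log2 ratio was above 0 in 9 of the 16, against 47% of all loops. Its median was 0.23 over the 16 loops, 0.11 over the rest of the arm and -0.02 over all loops, with a median SE of 0.65 for a stretch loop.

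At the distal edge, the loop starting at 58961995 was the last inside, with 1 and 7 PETs against 7 and 5. The first outside, starting at 59008769, had 2 and 2 against 6 and 4. A loop further out, between chr19:59048877-59059221 and chr19:59062973-59071741, had 19 and 18 PETs in the null libraries and 6 and 14 in wild type, a log2 ratio of 0.87 ± 0.42. Its adjusted p was 0.575 by edgeR's quasi-likelihood test (Benjamini-Hochberg adjusted).

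No loop of the arm passed the genotype test. By edgeR's quasi-likelihood test, Benjamini-Hochberg adjusted over all 22598 loops, 0 of the 258 were called, the lowest adjusted p being 0.285 in the rest of the arm and 0.831 in the stretch. Over the genome 0.031% of loops were called higher and 0.0221% lower. With no adjustment, at p under 0.05, 6 loops of the arm were higher and 4 lower in the null, all in the rest of the arm, against 4.24% and 4.07% of all loops. DESeq2 called 0 loops of the arm and gave 0 below an unadjusted p of 0.05. The median SE of a log2 ratio on the arm was 0.69, so 0 calls do not show that single loops kept their level. Over the arm the median log2 ratio was 0.12, and it was -0.06 when each chromosome was scaled to its own total. Normalised counts of the libraries did not overlap in 57 loops (22.1%) that were higher and 38 (14.7%) that were lower in the null, against 20.1% and 18.6% of all loops.

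**Figure D4:**
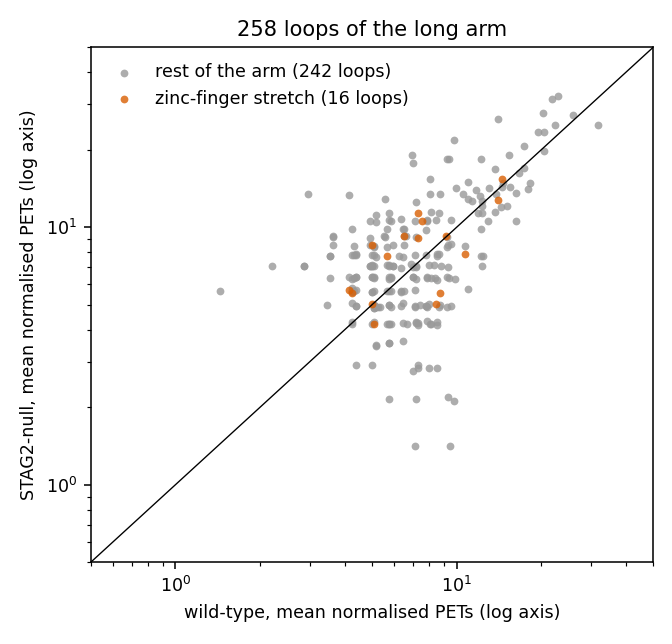
Mean normalised PETs in the 2 STAG2-null libraries against those in the 2 wild-type libraries (both log axes) for each of the 258 loops, with the 16 loops of the zinc-finger stretch and the 242 others in different colours. Points scatter on both sides of equality, and none was called by the genotype test.

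The authors' deposited table of differential loops holds 7 members among its 650 loops, 5 stronger in the null and 2 stronger in wild type, and none in the stretch. Of all high-confidence loops, the authors' deposited table holds 1.54% as stronger in the null and 1.32% as stronger in wild type. The 7 are described here with counts and ratios from the per-library files. The loop between the anchors chr19:45987631-45990230 and chr19:45995706-46003937 has a promoter flagged at both anchors, and the table names RTN2, which encodes a reticulon of the endoplasmic reticulum, and PPM1N, a protein phosphatase gene. It had 8 and 11 PETs in the null libraries and 3 and 1 in wild type. Its log2 ratio was 2.16 ± 0.70 and its adjusted p 0.285 by edgeR's quasi-likelihood test (Benjamini-Hochberg adjusted). The authors' deposited table gives it an adjusted p of 0.0424, by IHW, another method of adjustment. For the rest of the 7 that table gives 0.0701 to 0.0982, above the threshold for calls used here. Before adjustment the p-values of the RTN2 loop were close: 0.00195 by edgeR's quasi-likelihood test and 0.00168 by the authors' differential test. In this RTN2 loop the genotypes did not overlap. Both null libraries were above both wild-type libraries.

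Of the 4 others that were higher in the null, the loop at ZNF112, between chr19:44856584-44863711 and chr19:44869568-44881050, is the one at a zinc-finger gene. It had 10 and 21 PETs against 4 and 10, so the count of null 1 equalled that of wild-type 2, and a log2 ratio of 1.12 ± 0.48 that ran from 0.55 to 1.82 with 1 library left out. The authors' deposited table flags no CTCF at either of its anchors, H3K27ac at the first and a promoter at the second. The loop at XRCC1, a scaffold of DNA single-strand break repair, had 11 and 16 PETs against 2 and 8 and a log2 ratio of 1.40 ± 0.53. The loop at GYS1 and RUVBL2, the genes of muscle glycogen synthase and of an AAA+ ATPase, had 13 and 12 against 3 and 7, a log2 ratio of 1.29 ± 0.54. The loop at PPFIA3 and HRC had 7 and 12 against 1 and 5, a log2 ratio of 1.61 ± 0.64. Adjusted p-values of these 4 by edgeR's quasi-likelihood test (Benjamini-Hochberg adjusted) were 0.483, 0.388, 0.476 and 0.439 in the order given.

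The 2 that were lower in the null had few PETs. At SELENOW, listed under its older symbol SEPW1 and encoding a selenoprotein, the loop between chr19:48280637-48283440 and chr19:48291326-48294563 had 1 and 1 PETs against 8 and 5, a log2 ratio of -2.57 ± 0.91. At CEACAM6, a cell adhesion gene, the loop between chr19:42247657-42254467 and chr19:42288087-42293431 had 1 and 2 PETs against 4 and 10, a log2 ratio of -2.15 ± 0.80. Null and wild-type libraries did not overlap in either, and neither passed edgeR's quasi-likelihood test (Benjamini-Hochberg adjusted) (adjusted p = 0.335 and 0.385). CTCF, FLI1 and H3K27ac were all flagged at both anchors of the CEACAM6 loop. Over the 7 loops, CTCF was flagged at 10 of 14 anchors, H3K27ac at 9, FLI1 at 3 and a promoter at 6. The table flags only its own anchors, so these counts have no background on the arm.

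The loops with most PETs showed no called difference. The loop with the highest count, between anchors starting at 42376427 and 42426657, had 21 and 14 PETs in the null libraries and 24 and 20 in wild type, 79 in all, and a log2 ratio of -0.35 ± 0.36. The next, from 50351883 to 50359568, had 19 and 27 against 15 and 17. The widest loop of the arm, 363 kb from 49998632 to 50359568, had 2 and 4 PETs in each genotype. The second widest, 317 kb from 42426657 to 42745570, had 1 and 1 against 4 and 6, a log2 ratio of -2.20 ± 1.09. A loop from 49375013 to 49463513 had 3 and 0 against 6 and 7, a log2 ratio of -2.04 ± 0.82 that ran from -5.75 without STAG2-null 1 to -1.04 without STAG2-null 2. Both of these last were among the 4 that were lower at an unadjusted p under 0.05.

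The arm as a whole took a similar share of each library. It held 9916 of 682724 PETs in STAG2-null 1, 10749 of 698002 in STAG2-null 2, 9594 of 661881 in wild-type 1 and 10717 of 765017 in wild-type 2. The shares were 1.45, 1.54, 1.45 and 1.40%, with means of 1.50 ± 0.0619% in the null and 1.43 ± 0.0344% in wild type (SD, n = 2 each). The null libraries were the upper 2, with STAG2-null 1 just above wild-type 1. The log2 difference was 0.07, and the two-sided exact permutation test gave p = 0.333, the smallest that 2 libraries against 2 allow. The short arm differed by more: it took 2.75 and 2.74% of the PETs in the null libraries and 2.19 and 2.11% in wild type. The ratio of the long to the short arm, compared after the values were seen, was therefore lower in both null libraries, by a log2 difference of -0.28 (exact permutation p = 0.333).

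The stretch took a similar part of the arm in both genotypes. It held 12.7 and 12.4% of the arm's PETs in the null libraries and 12.5 and 12.5% in wild type. The 95% Wilson interval for STAG2-null 1, which covers counting error only, ran from 12.1 to 13.4% and held all 4 values. The log2 ratio of the stretch to the rest was -2.78 and -2.82 in the null and -2.81 and -2.81 in wild type, a difference of 0.01 (two-sided exact permutation test, p = 1). Both wild-type libraries lay between the null libraries. The difference turned to -0.03 when high-confidence loops alone were counted and to -0.05 when the stretch began later and left out 54 to 56 Mb. In that last setting the log2 ratios were -3.53 and -3.58 in the null and -3.49 and -3.52 in wild type. There the libraries of the genotypes did not overlap (two-sided exact permutation test, p = 0.333, the smallest possible).

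Along the arm, 1 of 31 windows of 1 Mb was called, none of them in the stretch. The window from 40 to 41 Mb rose in the null, with 384 and 431 PETs against 331 and 363, or 584 ± 27.1 against 492 ± 20.5 normalised PETs (SD, n = 2 each). Its log2 ratio was 0.25 ± 0.08 and its adjusted p 0.0431 by edgeR's quasi-likelihood test (Benjamini-Hochberg adjusted). In the genome 10.2% of windows were called higher and 8.21% lower, so 1 call in 31 windows does not exceed the background. The call was lost with DESeq2 (adjusted p = 0.324), without STAG2-null 2 (0.153), without wild-type 1 (0.221), without wild-type 2 (0.412), among sparse pairs, whose PETs sum to 4 or fewer (0.304), and when each chromosome was scaled to its own total (0.871). That last scaling, which sets the arm against a chromosome whose short arm was higher in the null, called 5 windows of the arm lower and none higher, and the windows' median went from 0.03 to -0.19.

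Windows of the stretch had log2 ratios from -0.18 to 0.18 with a median of 0.05, and 5 of the 7 were above 0, as were 51.7% of all windows. Their lowest adjusted p was 0.213 by edgeR's quasi-likelihood test (Benjamini-Hochberg adjusted), and none had an unadjusted p under 0.05, against 3 higher and 0 lower on the arm and 16.8% and 14.1% of all windows. The windows with the next highest ratios on the arm started at 44 Mb (0.22 ± 0.09) and 47 Mb (0.21 ± 0.08). The lowest ratios were at 28 Mb (-0.59 ± 0.29, on 101 PETs), 53 Mb (-0.18), 51 Mb (-0.17) and 42 Mb (-0.15 ± 0.08). By the same test the window at 42 Mb, with an adjusted p of 0.195, was called lower without STAG2-null 2 (adjusted p = 0.0326), for sparse pairs alone (-0.31, 0.0227) and with each chromosome scaled to its own total (-0.37, 0.000343).

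**Figure D5:**
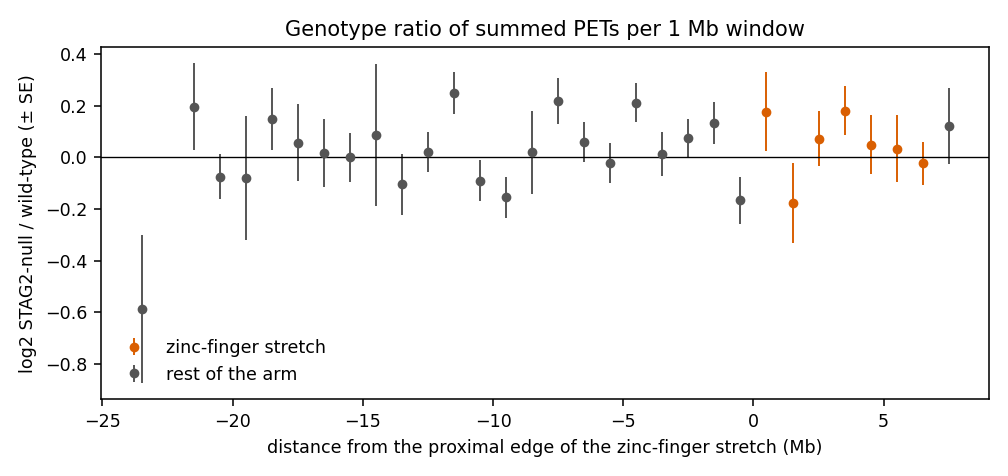
Log2 ratio of STAG2-null over wild type, with its SE, of the PETs summed in each 1 Mb window, against distance in Mb from the proximal edge of the zinc-finger stretch. The stretch's 7 windows lie between -0.18 and 0.18, within the range of the other windows.

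Of 1097 anchors of the arm with at least 20 PETs, 1 was called. The anchor chr19:47550245-47553467 had 41 and 58 PETs in the null libraries and 23 and 30 in wild type, or 71.4 ± 16.4 against 37.1 ± 2.90 normalised PETs (SD, n = 2 each). Its log2 ratio was 0.94 ± 0.26 and its adjusted p 0.0472 by edgeR's quasi-likelihood test (Benjamini-Hochberg adjusted), where 0.372% of all anchors were called higher and 0.503% lower. The call was lost without any 1 of the 4 libraries (adjusted p from 0.310 to 0.506), with DESeq2 and with each chromosome scaled to its own total. The first anchor of the XRCC1 loop came next, with 49 and 52 PETs against 27 and 31, a log2 ratio of 0.84 ± 0.25 and an adjusted p of 0.0804 in the same test.

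In the stretch 188 of 259 anchors had at least 20 PETs and 0 were called. At an unadjusted p under 0.05, 9 were higher and 2 lower in the null, against 34 and 25 of 909 in the rest of the arm and 5.77% and 6.16% of all anchors. The lowest adjusted p among the named anchors of the stretch, 0.189 by edgeR's quasi-likelihood test (Benjamini-Hochberg adjusted), was at chr19:56096346-56099425, with 24 and 34 PETs against 19 and 13 and a log2 ratio of 0.89 ± 0.33. The anchor at chr19:58896353-58899590 had 33 and 29 against 21 and 17. On the other side, the anchor at chr19:53841459-53843542 had 4 and 7 PETs against 14 and 10, and that at chr19:58976708-58982941 had 20 and 21 against 31 and 31. Neighbouring anchors share pairs and are not independent of each other. Median log2 ratios were 0.04 over the stretch and 0.04 over the rest, and the median over the arm's anchors went to -0.20 when each chromosome was scaled to its own total.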

How the data were processed

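SMC1 HiChIP was deposited as 1 table per library with a count of PETs per anchor pair, all on 1 set of anchors. The authors also deposited a high-confidence loop table with p-values and a table of differential loops with log2 fold changes and IHW-adjusted p-values, per the file headers. Per the submitters' processing notes, HiC-Pro and hg19 were used, with no version named. The high-confidence table gives a Mango FDR per loop, per the file headers, at most 0.0100 over all loops; other settings of the calling are not stated in those headers. Series tables name a genotype and not a library, so counts came from the per-library files. The log2 values of the authors' table run wild-type over mutant and were turned.

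Counts were tested with edgeR 4.0.16 (R 4.3.3), quasi-likelihood, on genotype alone, with library totals over all pairs and TMM factors, Benjamini-Hochberg adjustment over the genome and calls at an adjusted p under 0.05. Minimums over the 4 libraries were 10 PETs per loop, 100 per window and 20 per anchor. DESeq2 1.42.0 was an alternative. Single values were compared by two-sided exact permutation in scipy 1.17.1. Normalised PETs are per 1000000 of the scaled library size. The fits were tested on simulated data. Libraries held 661881 to 765017 PETs, which leaves most loops under 10 PETs per library.

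The members and lists were chosen with earlier results of these data known. Loops named were, in the stretch and in the rest of the arm, the 6 with the smallest p per direction, the 3 with most PETs, the 2 widest and those in the authors' table; windows, the 4 highest and 4 lowest; anchors, the 4 with the smallest p per direction and part. Of 13 gene names at the 7 loops, 9 were current and 2 older symbols in RefSeq. Of the fixed gene lists, ZNF112 and CEACAM6 were among the genes named at those 7 loops. Genes at the other named loops were not known, so members of the lists there could not be placed.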

Additional observations from a re-analysis of the deposited data

How the results depend on the processing

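In every alternative run, 0 loops of the arm were called, and the arm's share of PETs kept its direction (log2 difference 0.02 for sparse pairs, 0.18 for high-confidence loops, 0.03 to 0.11 without 1 library). The stretch against the rest turned from 0.0103 to -0.0252 with high-confidence loops alone and to -0.0517 with a later start and without 54 to 56 Mb, and ranged from -0.0105 to 0.0310 without 1 library. Windows called higher numbered 3 without TMM factors, 2 at a minimum of 500 PETs, 0 with DESeq2, 0 for sparse pairs (1 lower), 0 with chromosome scaling (5 lower), and 0 to 3 (0 to 1 lower) without 1 library. Anchors called higher went from 1 to 0 with DESeq2, with chromosome scaling and without each library (range 0 to 0). Replicate numbers are shared by the genotypes. The deviations of same-numbered libraries correlated at 0.0129 over loops, -0.0223 over windows and 0.00532 over anchors. No pairing by number was seen in these values, and whether same-numbered libraries were prepared together is not known. With a replicate block, edgeR's quasi-likelihood test called 0 windows (40 to 41 Mb at an adjusted p of 0.0538), 1 anchor and 0 loops. The ratio of median widths was 0.932 at 20 or more PETs, for loops and for all anchor pairs alike, and 0.768 without 54 to 56 Mb.

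Some named loops changed sign. The loop at 49998632 was 0.0475 without TMM factors, 0.0232 with scaling by 10 Mb window and 0.0799 among loops of at least 20 kb. The loop at 54692434 was 0.0490 without TMM factors, 0.00778 with DESeq2 and 0.0203 with that window scaling. Chromosome scaling gave -0.0659 at 56142877, -0.0230 for the 30 Mb window and -0.00675 for the 47 Mb window. Without 1 library the ranges were -0.32 to 1.06 (42745570), -0.51 to 0.46 (49998632), -0.40 to 0.58 (54692434), -0.67 to 0.93 (54703933), -1.43 to 1.14 (55723178), -0.73 to 0.13 (55812279), -0.94 to 0.70 (56142877), -0.36 to 2.82 (56163832), -0.57 to 0.47 (58903464 to 58911273) and -2.40 to 0.17 (58961995). The causes were not tested. Over the named loops, windows and anchors, 506 other values kept direction and side of the threshold, 10 passed it and 12 fell short of it.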
